A study of Mus musculus with 208 samples.

Results

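Metabotropic glutamate receptors are G protein-coupled receptors through which glutamate adjusts the strength of synapses, in contrast to the ion channels that carry fast transmission. Group I, represented here by Grm5, couples to Gq and phospholipase C and sits mostly on the postsynaptic side. Group II (Grm2 and Grm3) and group III (Grm4, Grm7 and Grm8) couple to Gi/o, lower cyclic AMP, and mostly act on axon terminals, where they reduce transmitter release; Grm3 is also known from astrocytes. The 6 genes described here are the rows with these symbols among the 46403 genes listed in each regional count table. They were chosen by symbol, with earlier results of these data known, and all 6 passed the filter on low counts in all 4 regions.

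RNA was measured in 208 libraries of nuclear RNA from sorted NeuN+ nuclei (NeuN is a nuclear protein of most neurons), each made from 1 region of 1 animal, with 71 wild type C57BL/6NTac adults from 18 litters in all. Dams wore osmotic minipumps that gave saline or a daily 10 mg/kg of morphine; newborns moved to drug-naive surrogates received injections of morphine at 10 mg/kg or of saline from postnatal day 1 to 14, and as adults they received lipopolysaccharide (LPS, a bacterial product that provokes an immune response) or saline 2 h before the tissue was taken. The groups were SAL-SAL (saline early and as adults), MOR-SAL (morphine early, saline as adults), SAL-LPS (saline early, LPS as adults) and MOR-LPS (morphine early, LPS as adults). In that order they held 13, 12, 14 and 16 libraries in the hippocampus, 11, 14, 12 and 14 in the hypothalamus, 10, 12, 10 and 16 in the prefrontal cortex (PFC) and 13, 8, 15 and 18 in the striatum. Both sexes were present in every group, exposure was given to whole litters, and the labels call the animals adult without an age. Animals and litters are counted here by the replicate numbers, whose first part the study's supplement calls the litter, and the study's text gives a higher number of litters.

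Total counts of hypothalamic libraries spanned 7673 to 35077048 and those of hippocampal ones 227025 to 24071488. The PFC (3056648 to 21988203) and the striatum (5954700 to 92945090) had no library that shallow. A total below 0.5 of the region's median was found in 8 libraries, 3 of them hypothalamic, and the Y-linked genes of 9 libraries went against the labelled sex. Defining genes of other structures and cells were present. In CPM, each count scaled to a common library total, the summed striatal markers had a median of 1460 in the PFC libraries against 1526 in the striatal ones, and the thalamic markers were highest in the striatum (median 682, range 27.7 to 4103). The summed hypothalamic markers had a median of 50.1 CPM in the hypothalamus and 6.00 to 11.9 CPM elsewhere. The largest medians there were Sim1 (12.6 CPM), Nkx2-1 (6.19) and Hcrt (5.64), while Avp (0.255), Oxt (0.169) and Pomc (1.16) were barely detected and Agrp was lower in the hypothalamus (2.57) than elsewhere (4.80 to 8.39). Summed oligodendrocyte markers above 2000 CPM, which a NeuN+ sort should not give, marked 18 libraries, of which 13 were MOR-LPS. These libraries were kept in the tests, and the member calls lost without them are named beside the results.

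The members differ widely in size, which bears on how their levels can be read. On mm10, by GENCODE release M21, Grm5 spans chr7:87584168-88134907 (plus strand), Grm2 chr9:106643095-106656082 (minus strand), Grm3 chr5:9485541-9725170 (minus strand), Grm4 chr17:27422387-27521403 (minus strand), Grm7 chr6:110645581-111567230 (plus strand) and Grm8 chr6:27275119-28135178 (minus strand). Exons make up 37.7% of the span of Grm2 and between 0.639% (Grm7) and 6.04% (Grm4) of the others. Exons of Grm2 overlap those of the antisense gene Gm28111 over 470 bases, exons of Grm7 those of the antisense gene Gm20387 over 130 bases, and exons of Grm8 those of Mir592 over 96 bases. Reads there cannot be assigned with certainty, since the use of strand in counting is not given in the sources used here.

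Levels of long genes were not comparable between the hypothalamic table and the other tables. The genes compared were protein-coding genes with a minimum SAL-SAL median in every region. Across them, the median log2 ratio of hippocampus to hypothalamus rose from -0.39 in the shortest to 1.76 in the longest of 10 span groups. Each span group is an equal share of these genes, ordered by the distance from first to last base. The same ratio rose from -0.23 to 1.72 for the PFC and from -0.66 to 1.93 for the striatum, whereas between the 3 forebrain tables these medians stayed between -0.27 and 0.41. Grm3, Grm5, Grm7 and Grm8 lie in span group 10, the longest genes, Grm4 in span group 9 and Grm2 in span group 3. A comparison of a member between the hypothalamus and another region is therefore given together with the median of its span group.

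**Figure D1:**
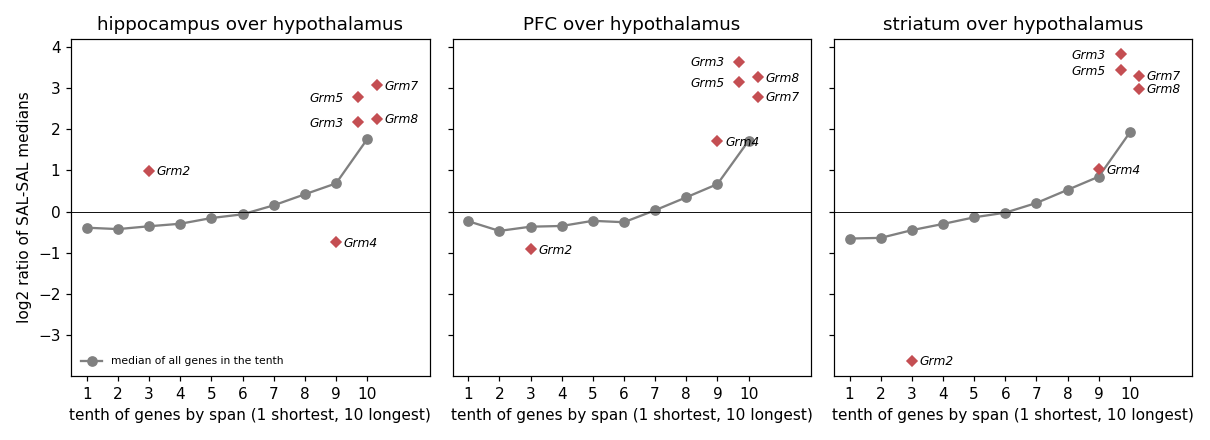
Log2 ratio of the SAL-SAL median of each forebrain region to that of the hypothalamus (vertical axis) against the span group (horizontal axis, genes in equal shares from 1, shortest, to 10, longest). Grey circles are medians over the protein-coding genes compared in a span group and rise to between 1.72 and 1.93 in the longest group. Red diamonds are the 6 receptor genes, of which Grm3, Grm5, Grm7 and Grm8 lie above the circle of their group in all 3 panels.

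Grm7 and Grm5 held most of the receptor reads. Levels are given as TMM-normalized CPM (CPM after a correction for composition), over all conditions of a region unless stated otherwise. Grm5, the group I receptor, had a median of 959 CPM in the hippocampus, 134 in the hypothalamus, 1221 in the PFC and 1628 in the striatum. Grm7, the group III receptor known from the active zones of terminals, had medians of 1331, 175, 1266 and 2172 CPM in the same order. Divided by exon length, Grm7 ranked first, Grm5 the second and Grm3 the third in each of the 4 regions, with 226 CPM per exon kb for Grm7 against 93.6 for Grm5 in the hippocampus. Divided by span, the order changed: Grm2 ranked first in the hippocampus (4.50 CPM per span kb) and the hypothalamus (3.07), and Grm5 ranked first in the PFC (2.22) and the striatum (2.96). The study names STAR's gene-count mode, which counts reads over annotated exons, but the levels of long genes differed between the tables, so both scales are shown.

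Among the group II receptors, Grm2 and Grm3 had opposite patterns over the forebrain. Grm2, a presynaptic autoreceptor of glutamatergic terminals, had medians of 58.4 CPM in the hippocampus, 39.9 in the hypothalamus, 11.4 in the PFC and 4.06 in the striatum. It had no read in 7 of 48 PFC libraries, where a count of 0 allows up to 0.253 to 0.981 CPM (3 counts of the library's total, counting error only). Grm3 had medians of 121, 26.3, 303 and 339 CPM in the same order. Among the other group III receptors, Grm4 had medians of 38.6, 43.5, 147 and 166 CPM and Grm8 of 197, 34.8, 279.8 and 276 CPM. Spread between libraries was wide, with a coefficient of variation from 30.6% (Grm7, hippocampus) to 122% (Grm2, striatum).

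**Figure D2:**
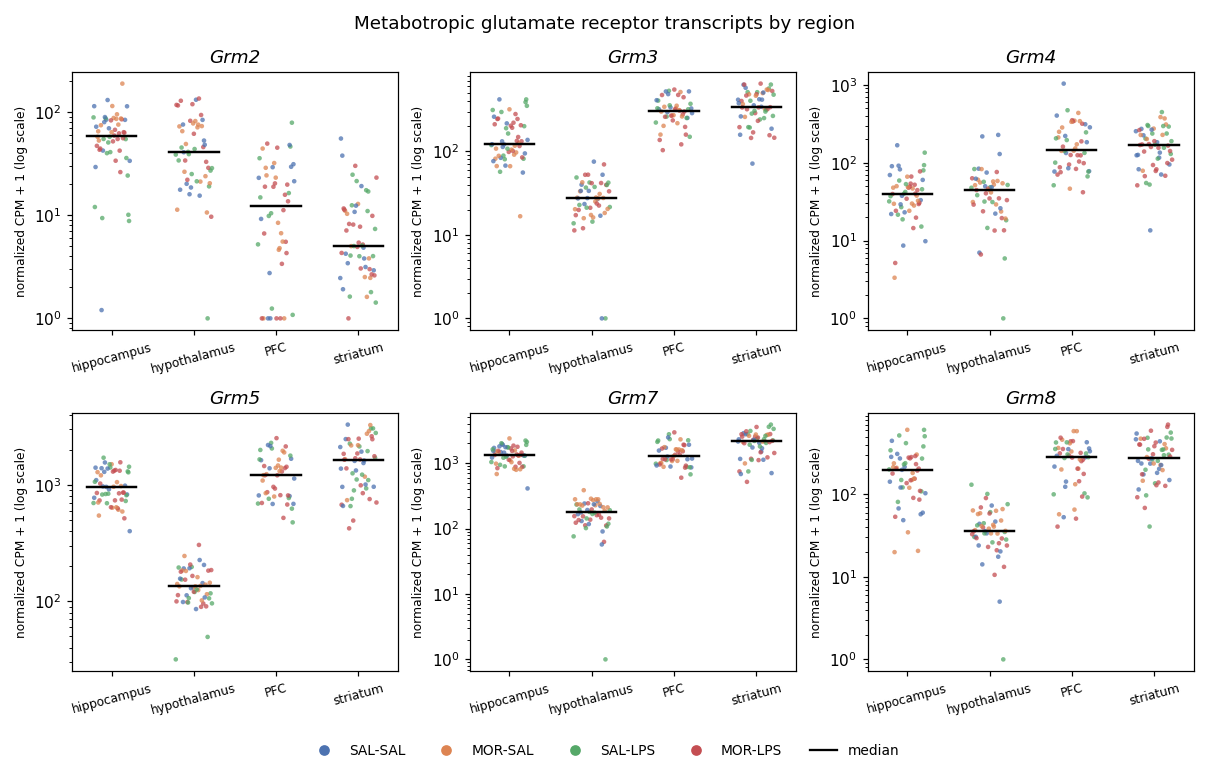
TMM-normalized CPM of each receptor gene plus 1 (vertical axes, log scale) in the 4 regions, with 1 point per library, the conditions set apart by colour and a bar at the median. Grm2 lies highest in the hippocampus (median 58.4 CPM) and lowest in the striatum (4.06), and Grm5 and Grm7 lie near or above 1000 CPM in the 3 forebrain regions.

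Regions were compared in the SAL-SAL libraries alone, so that neither morphine nor LPS entered, with edgeR's quasi-likelihood test over 15889 genes and a call at an adjusted p under 0.05. Of 36 tests of the members, 20 were called, 6 of 18 between forebrain regions and 14 of 18 against the hypothalamus. The unit of each p-value is the library of 1 animal, and it measures the spread between libraries. For each pair of regions, 8 to 11 animals gave libraries to both by the labels. The main fit took these libraries, and those of littermates, as independent. Calls that changed with the animal as a block are named beside the results.

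Grm2 was higher in the hippocampus than in the PFC and the striatum. In hippocampal SAL-SAL libraries it ran from 0.203 to 130 CPM with a median of 79.2, in the PFC from 0 to 47.1 with a median of 21.2, and in the striatum from 0.917 to 54.6 with a median of 3.24. The groups overlapped through low hippocampal libraries, but 9 of 13 hippocampal libraries lay above every PFC library, and 9 of 13 above every striatal one. The log2 fold change was 1.97 ± 0.68 (SE) against the PFC (edgeR adjusted p = 0.0457) and 2.65 ± 0.63 against the striatum (edgeR adjusted p = 0.00363). The first of these was lost with the animal as a block (adjusted p = 0.101), without litter 10 (0.061), in each sex alone (0.1195 in females, 0.488 in males), without the libraries high in oligodendrocyte markers (0.0549) and without PFC library 5-1 (0.0712). The second was lost in females (0.0611) and males (0.228) alone.

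Grm3 and Grm4 went the other way. Grm3 was 145 ± 100.4 CPM (SD, n = 13) in hippocampal, 375 ± 101 (n = 10) in PFC and 362 ± 162 (n = 13) in striatal libraries. Its log2 fold change was -1.36 ± 0.31 against the PFC (edgeR adjusted p = 0.00185) and -1.30 ± 0.29 against the striatum (edgeR adjusted p = 0.00178). Hippocampal Grm4 was 54.7 ± 44.7 CPM, against 280.3 ± 288 in PFC and 149.9 ± 82.1 in striatal libraries. The PFC mean rested in part on library 5-1, at 1036 CPM, and the other 9 had 196 ± 117 CPM. Its log2 fold change was -2.38 ± 0.48 against the PFC (edgeR adjusted p = 0.000526) and -1.43 ± 0.45 against the striatum (edgeR adjusted p = 0.0340). Without library 5-1 the difference from the PFC was -1.70 (edgeR adjusted p = 0.0107). In males alone none of these Grm3 and Grm4 calls was made (adjusted p from 0.0757 to 0.416), and Grm4 against the striatum was also lost in females alone (0.097) and without litter 10 (0.0767). With the calls of Grm2, 3 of 6 members were called in either pair, beside 12.8% of all genes called between hippocampus and PFC and 8.64% between hippocampus and striatum.

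Grm5, Grm7 and Grm8 were not called between forebrain regions, with log2 fold changes from -0.58 to 0.10 and a smallest edgeR adjusted p of 0.109 between the hippocampus and the other 2. Between PFC and striatum none of the 6 was called (log2 fold changes -0.36 to 0.94), although 13.3% of all genes were. In the PFC libraries, levels of Grm2 followed the summed PFC markers (r = 0.71 over 45 libraries, on a log scale) and ran against the striatal markers (r = -0.72). Those r values describe libraries that share region and preparation, and the part of the striatal RNA in the PFC values was not tested.

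Against the hypothalamus, Grm3, Grm5, Grm7 and Grm8 were higher in all 3 forebrain regions, by log2 fold changes of 2.24 to 3.17 (hippocampus), 3.07 to 3.60 (PFC) and 3.16 to 3.54 (striatum). Taken relative to the median of the genes of like span, these differences were 0.48 to 1.41, 1.35 to 1.88 and 1.24 to 1.61. Grm4 was called against the PFC (hypothalamus lower, log2 fold change -1.88 ± 0.51, edgeR adjusted p = 0.00239, or -1.21 relative to its span group) and Grm2 against the striatum (hypothalamus higher, 1.88 ± 0.64, edgeR adjusted p = 0.0158, or 1.43 relative to its span group). The first was -1.25 without PFC library 5-1 (edgeR adjusted p = 0.0291) and was lost in females alone (adjusted p = 0.212), and the second was lost in males alone (0.285) and without the libraries high in oligodendrocyte markers (0.0725). With the animal as a block, Grm4 was also called against the striatum (hypothalamus lower, -1.16, edgeR adjusted p = 0.0434), where the median of its span group was -0.85. Without the block the Grm4 difference was -0.94 ± 0.48 (edgeR adjusted p = 0.118), or -0.09 relative to its span group. The counts of 4, 5 and 5 of 6 members stand beside 39.3%, 40.7% and 38.9% of all genes called for hippocampus, PFC and striatum. Differences between regions and differences between the tables in the level of long genes cannot be told apart in these pairs.

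The effects of perinatal morphine and adult LPS were tested within each region, so that differences between the tables did not enter, with the 4 conditions and sex in 1 edgeR fit. In bulk RNA, fewer cells of a type and less RNA per cell cannot be told apart. Of 120 tests (6 members, 4 regions and 5 comparisons), 2 were called and 21 had an unadjusted p under 0.05. Among all genes, between 10.1% and 20.5% had an unadjusted p under 0.05 in these comparisons. In the hypothalamus 2 or 3 of 6 members did in each comparison, beside 13.9% to 20.5% of all genes. In the other 3 regions 0 to 2 of 6 members did, beside 10.1% to 17.8% of all genes. Comparisons of a region share groups, so these counts are not independent. Both calls were in the hypothalamus: Grm7 fell after LPS in morphine-exposed mice, and Grm2 was higher in MOR-LPS than in SAL-LPS mice.

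**Figure D3:**
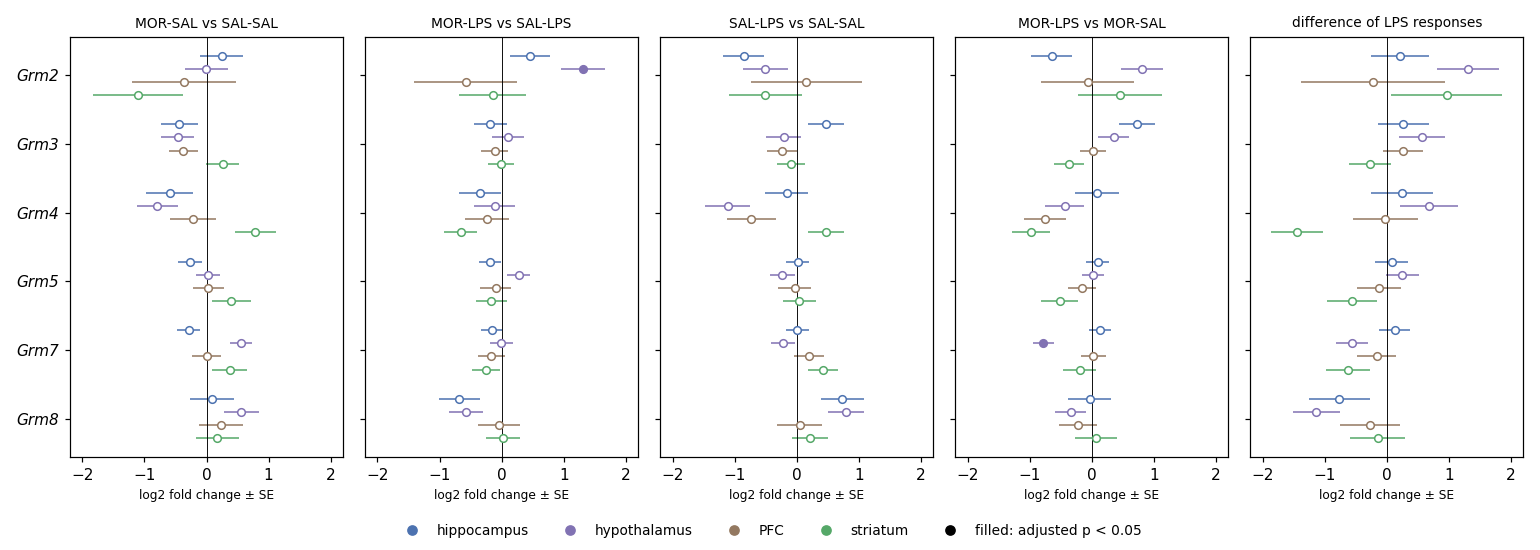
Log2 fold change (horizontal axes) with its standard error for each receptor gene in the 5 condition comparisons and 4 regions, from edgeR. Filled points are the 2 called at an adjusted p under 0.05, hypothalamic Grm7 at -0.78 (MOR-LPS vs MOR-SAL) and hypothalamic Grm2 at 1.30 (MOR-LPS vs SAL-LPS).

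Hypothalamic Grm7 was high in MOR-SAL mice and lower in each of the other groups. In MOR-SAL libraries it ran from 186 to 385 CPM with a median of 236, and in MOR-LPS libraries from 61.6 to 242 with a median of 144. It ran from 74.9 to 232 CPM in SAL-LPS libraries other than 1-4, whose 7673 counts held no read of Grm7, and from 89.3 to 259.6 with a median of 191 in SAL-SAL libraries without low depth. Of 14 MOR-LPS libraries, 12 lay below every MOR-SAL library, so that the groups overlapped only through 2 libraries. The mean went from 253 ± 49.2 CPM (SD, n = 14) in MOR-SAL to 145 ± 41.7 (SD, n = 14) in MOR-LPS, a log2 fold change of -0.78 ± 0.17 (SE, edgeR adjusted p = 0.00437), where 6.27% of all genes were called.

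The direction held in each of the 9 litters that had both groups. The call was made under 12 of 14 alternatives and was lost in females alone (log2 fold change -0.72, edgeR adjusted p = 0.132) and in males alone (-0.81, edgeR adjusted p = 0.0502). With the litter as a block the adjusted p was 0.00872. Genes of like span had a median log2 fold change of -0.02 in the same comparison. Glial markers moved with the groups: the summed oligodendrocyte markers (6 of 6 detected) ran from 64.5 to 558 CPM in MOR-SAL and from 196 to 5046 in MOR-LPS, and the astrocyte markers (6 of 6 detected) from 14.5 to 41.2 and from 14.2 to 611. Across 48 hypothalamic libraries Grm7 had r = -0.51 with the oligodendrocyte sum and -0.44 with the astrocyte sum. Without the libraries above 2000 CPM of oligodendrocyte markers the log2 fold change was -0.67 (edgeR adjusted p = 0.017).

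At baseline, Grm7 was higher in MOR-SAL than in SAL-SAL hypothalamus by a log2 fold change of 0.55 ± 0.18 (unadjusted p = 0.00355, edgeR adjusted p = 0.0853), which did not pass the threshold, and 1.44% of all genes did. All 14 MOR-SAL libraries lay above the SAL-SAL median and 6 above every SAL-SAL library. After LPS the MOR-LPS and SAL-LPS levels had a log2 fold change of 0.00 ± 0.18 (edgeR adjusted p = 1). The LPS response in saline-reared mice was -0.22 ± 0.19 (edgeR adjusted p = 0.718; 0.246% of all genes called), and its difference from the response in morphine-exposed mice was -0.56 ± 0.26 (edgeR adjusted p = 0.256; 3.8% of all genes called).

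Hypothalamic Grm2 was low in SAL-LPS mice and spread widely in MOR-LPS mice. In SAL-LPS libraries it ran from 0 to 44.4 CPM with a median of 30.4, the 0 being library 1-4, and in MOR-LPS libraries from 8.69 to 135 with a median of 71.2. Of 14 MOR-LPS libraries, 9 lay above every SAL-LPS library and 3 below the SAL-LPS median. The means were 29.4 ± 12.8 CPM (SD, n = 12) and 72.6 ± 44.9 (SD, n = 14), a log2 fold change of 1.30 ± 0.35 (SE, edgeR adjusted p = 0.0493), where 1.03% of all genes were called. The call was close to the threshold and was made under 5 of 13 alternatives, with adjusted p from 0.0417 to 0.389 and log2 fold changes from 0.75 to 1.52. Without the 3 low-depth libraries the adjusted p was 0.0696, and without the libraries whose Y-linked genes went against the label it was 0.0763. Without the libraries high in oligodendrocyte markers the log2 fold change was 1.52 (edgeR adjusted p = 0.0479). The 14 and 12 libraries came from 9 and 6 litters, and the call was lost without litter 10 (1.24, adjusted p = 0.109). It was also lost under limma-voom with an estimated correlation within litters (log2 fold change 0.83, adjusted p = 0.254). That fit changed both the tool and the correlation, which was estimated at -0.049, and limma-voom without the correlation was not run. The LPS response of Grm2 in all morphine-exposed mice was 0.80 ± 0.34 (edgeR adjusted p = 0.141), and its difference from that in saline-reared mice was 1.31 ± 0.49 (edgeR adjusted p = 0.132), neither of them called. Markers of other structures moved with the groups: the summed PFC markers (median 102 CPM in MOR-LPS, 60.5 in SAL-LPS) and the hippocampal markers (median 449 CPM, up to 2169, in MOR-LPS, and 357, up to 560, in SAL-LPS) were higher in MOR-LPS libraries. The library with the highest hippocampal sum, MOR-LPS 6-0, also had the highest Grm2 of its group, 135 CPM. Across 48 libraries Grm2 had r = 0.27 with the PFC sum, 0.22 with the hippocampal sum, 0.24 with the neuronal sum, and between -0.02 and 0.03 with the thalamic, oligodendrocyte and astrocyte sums. The part of these tissues in the result was not tested.

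**Figure D4:**
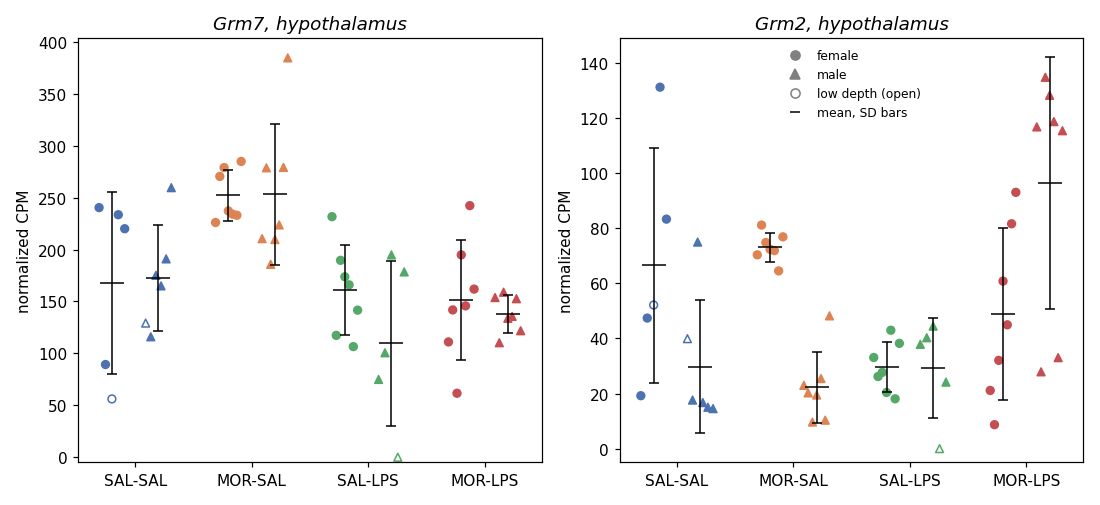
TMM-normalized CPM (vertical axes) of Grm7 (left) and Grm2 (right) in the hypothalamus by condition, with 1 point per library, females and males set apart, open symbols for low-depth libraries, and a bar at the mean of each sex with its SD. Both sexes together, Grm7 is 253 ± 49.2 in MOR-SAL and 145 ± 41.7 in MOR-LPS (SD, n = 14 each), and the male MOR-SAL points of Grm2 (9.65 to 48.2 CPM) lie below the female ones (64.5 to 81.1).

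The LPS response of Grm2 in morphine-exposed mice differed between the sexes. Male MOR-SAL libraries ran from 9.65 to 48.2 CPM (median 20.2, n = 7) and male MOR-LPS libraries from 27.9 to 135 (median 117, n = 7). Female MOR-SAL libraries ran from 64.5 to 81.1 CPM (median 72.3, n = 7) and female MOR-LPS libraries from 8.69 to 93.0 (median 44.9, n = 7). In SAL-SAL libraries Grm2 was also higher in females (median 52.1 CPM, n = 5) than in males (median 17.2, n = 6), with overlapping ranges. In morphine-exposed mice the groups labelled female and male did not overlap at baseline, and after LPS they did. Of the 7 MOR-SAL libraries labelled female, 12-1 and 15-0 (70.3 and 71.9 CPM) had Y-linked expression against the label, so that by those genes the separation at baseline was not complete.

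Tested within the sexes, in 1 fit of the groups of condition and sex together, the log2 fold change was 2.17 in males (edgeR adjusted p = 0.0011). It was -0.58 in females (edgeR adjusted p = 0.483). The difference, male minus female, was 2.75 ± 0.53 (SE, edgeR adjusted p = 0.0197), 1 of 10 genes called among 28859 (0.0347%). Males were higher after LPS in 5 of 5 litters and females lower in 3 of 4. In the morphine-exposed mice of this region the male and female litters were separate, 5 of each with 0 shared, so that sex and litter cannot be told apart for the levels. The call held without the low-depth libraries (adjusted p = 0.0326) and without those whose Y-linked genes went against the label (0.048), and was lost without the libraries high in oligodendrocyte markers (2.46, adjusted p = 0.0845) and without all of these (2.49, adjusted p = 0.0956). This test was chosen after the values had been seen.

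It was the only call among 120 such tests of the members, of which 7 had an unadjusted p under 0.05. Among all genes of the hypothalamus the sex difference was called in 0% of all genes for morphine at baseline, 0.0104% for morphine after LPS, 0.00347% for LPS in saline-reared mice and 0.0901% for the interaction. In the hippocampus these shares were 0%, 2.41%, 0.0136% and 0.544%, with 0.181% for LPS in morphine-exposed mice. In the PFC and the striatum they were 0% in all 5 comparisons.

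The other group III receptors, Grm8 and Grm4, were not called in the hypothalamus. Grm8, a presynaptic receptor like Grm7, was higher in SAL-LPS than SAL-SAL mice by 0.79 ± 0.29 on the log2 scale (edgeR adjusted p = 0.156), with 8 of 12 SAL-LPS libraries above the SAL-SAL median. It was higher in MOR-SAL than SAL-SAL mice by 0.56 ± 0.28 (edgeR adjusted p = 0.282), with all 14 MOR-SAL libraries, from 32.5 to 65.2 CPM, above the SAL-SAL median of 29.6. In MOR-LPS against SAL-LPS mice it had a log2 fold change of -0.57 ± 0.27 (edgeR adjusted p = 0.309), and of 0.024 in females alone. The difference between the LPS responses was -1.13 ± 0.39 (unadjusted p = 0.00456, edgeR adjusted p = 0.0822), and it was called without the libraries high in oligodendrocyte markers (-1.45, edgeR adjusted p = 0.0357). With the thalamic markers as a term it was -0.81 (edgeR adjusted p = 0.3).

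Hypothalamic Grm4 was high in SAL-SAL libraries that also held thalamic markers. Without low-depth libraries it ran from 21.2 to 226 CPM in SAL-SAL (median 61.3), from 18.1 to 81.7 in MOR-SAL (median 50.8), from 4.89 to 81.9 in SAL-LPS (median 37.3) and from 5.62 to 74.9 in MOR-LPS (median 32.9). The summed thalamic markers (6 of 6 detected) had a median of 685 CPM in SAL-SAL, with a range of 42.9 to 3760, against medians of 90.5 in MOR-SAL, 140.1 in SAL-LPS and 108 in MOR-LPS, in the same libraries. Across 48 libraries Grm4 had r = 0.56 with that sum, -0.60 with the astrocyte sum, -0.45 with the hippocampal sum and -0.39 with the oligodendrocyte sum. The part of glial cells in the Grm4 values was not tested.

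Its log2 fold change was -0.79 ± 0.33 in MOR-SAL against SAL-SAL (edgeR adjusted p = 0.186) and -1.11 ± 0.36 in SAL-LPS against SAL-SAL (unadjusted p = 0.00273, edgeR adjusted p = 0.104), neither of them called. With the thalamic markers as a term the first became 0.18 and the second -0.40. Without litter 10, whose SAL-SAL libraries 10-1 and 10-3 had 217 and 226 CPM of Grm4, they were -0.19 and -0.61.

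**Figure D5:**
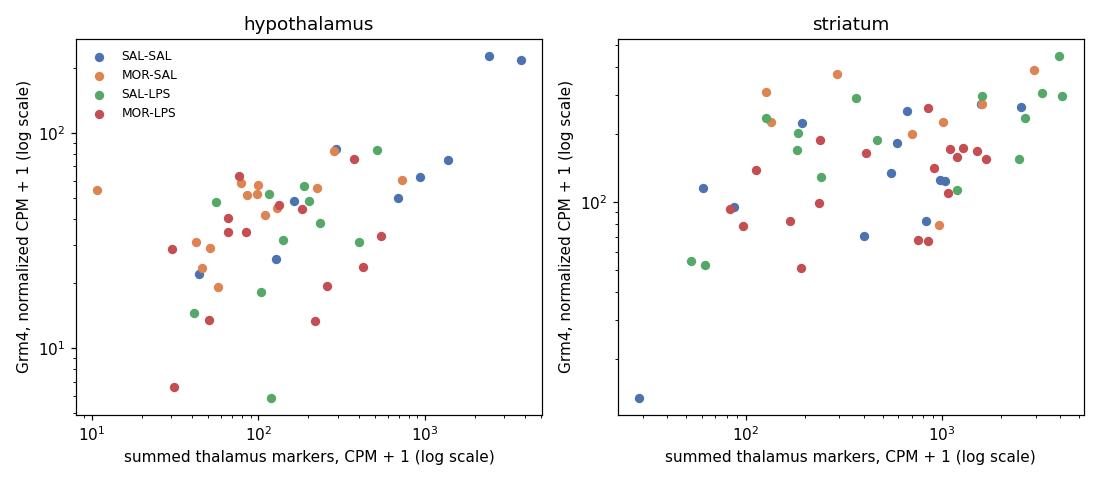
TMM-normalized CPM of Grm4 plus 1 (vertical axes, log scale) against the summed CPM of 6 thalamic marker genes plus 1 (horizontal axes, log scale) in the hypothalamus and the striatum, with 1 point per library coloured by condition and low-depth libraries left out. Points rise together in both panels (r = 0.56 over 48 hypothalamic and 0.54 over 54 striatal libraries), and SAL-SAL points hold the highest hypothalamic values, up to 226 CPM of Grm4.

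In the striatum, Grm4 had the largest fitted difference between the LPS responses among the members in the 4 regions. It ran from 77.8 to 384 CPM in MOR-SAL (median 249.9, n = 8) and from 50.2 to 261 in MOR-LPS (median 139, n = 18), and 17 of 18 MOR-LPS libraries lay below the MOR-SAL median. In saline-reared mice it ran from 12.5 to 271 CPM without LPS (median 125, n = 13) and from 51.4 to 446 with LPS (median 203, n = 15). All 4 groups overlapped.

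The log2 fold change after LPS was -0.98 ± 0.31 in morphine-exposed mice (unadjusted p = 0.00247, edgeR adjusted p = 0.0857), where 1.39% of all genes were called. It was 0.47 ± 0.29 in saline-reared mice (edgeR adjusted p = 0.537; 0.0128% of genes called), and the difference between them was -1.45 ± 0.42 (unadjusted p = 0.00122, edgeR adjusted p = 0.0825; 0.00854% of genes called). With the thalamic markers as a term the first passed the threshold (-0.99, edgeR adjusted p = 0.0422). Its adjusted p was 0.252 without the libraries high in oligodendrocyte markers and 0.365 with the litter as a block. Striatal Grm4 was 0.79 ± 0.33 higher in MOR-SAL than SAL-SAL mice (edgeR adjusted p = 0.36) and -0.66 ± 0.26 in MOR-LPS against SAL-LPS (edgeR adjusted p = 0.26), 2 comparisons in which 0% of all genes were called.

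The other striatal members all had an unadjusted p of at least 0.05, with log2 fold changes between -1.11 and 0.97. Levels of Grm5 and Grm7 there followed the summed neuronal markers, each with r = 0.85 over 54 libraries. Median thalamic marker sums in the striatum were 590 CPM in SAL-SAL, 833 in MOR-SAL, 469 in SAL-LPS and 800.0 in MOR-LPS.

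In the hippocampus no member was called, beside 0% of all genes for morphine at baseline, 2.73% for morphine after LPS, 2.55% for LPS in saline-reared mice, 0.467% for LPS in morphine-exposed mice and 2.35% for the interaction. Grm2 was 71.9 ± 37.6 CPM (SD, n = 13) in SAL-SAL and 40.2 ± 26.8 (SD, n = 14) in SAL-LPS, with 12 of 14 SAL-LPS libraries below the SAL-SAL median and a log2 fold change of -0.86 ± 0.34 (edgeR adjusted p = 0.142). In morphine-exposed mice it went from 86.6 ± 36.5 to 54.4 ± 16.0 (-0.65 ± 0.33, edgeR adjusted p = 0.37). Grm8 was 178 ± 122 CPM in SAL-SAL and 296 ± 167 in SAL-LPS (0.74 ± 0.35, edgeR adjusted p = 0.248), and 181 ± 75.9 in MOR-LPS, which was -0.68 ± 0.33 against SAL-LPS (edgeR adjusted p = 0.277). Grm3 went from 106 ± 72.7 CPM in MOR-SAL to 178 ± 62.2 in MOR-LPS, with 15 of 16 MOR-LPS libraries above the MOR-SAL median (0.73 ± 0.29, edgeR adjusted p = 0.197). The 26 hippocampal log2 fold changes with an unadjusted p of at least 0.05 lay between -0.77 and 0.47. The summed hippocampal markers had a median of 1918 CPM in SAL-SAL, 2120.0 in MOR-SAL, 1230.2 in SAL-LPS and 1871 in MOR-LPS. Over 53 libraries Grm2 had r = 0.34 with that sum, Grm8 -0.53 and Grm3 -0.61, and Grm2 had r = -0.57 with the striatal sum. The part of the dissected tissue in these differences was not tested.

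In the PFC no member was called either, beside 0% of all genes for morphine at baseline and for LPS in saline-reared mice, 0.0046% for morphine after LPS, 0.0184% for LPS in morphine-exposed mice and 1.78% for the interaction. Grm4 went from 237 ± 113 CPM (SD, n = 12) in MOR-SAL to 148 ± 99.1 (SD, n = 16) in MOR-LPS, with 13 of 16 MOR-LPS libraries below the MOR-SAL median (-0.75 ± 0.34, edgeR adjusted p = 0.289). The remaining PFC log2 fold changes lay between -0.73 and 0.26.

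Hypothalamic Grm3 was 31.6 ± 19.2 CPM (SD, n = 11) in SAL-SAL, 24.1 ± 7.60 (n = 14) in MOR-SAL, 27.5 ± 14.7 (n = 12) in SAL-LPS and 31.8 ± 17.5 (n = 14) in MOR-LPS, and none of its 5 comparisons was called (smallest edgeR adjusted p = 0.38). It had r = 0.67 with the oligodendrocyte sum and 0.54 with the astrocyte sum over 48 libraries.

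Grm5 was not called in any region. It had no unadjusted p under 0.05 in any of 20 condition comparisons. In the hypothalamus it was 149 ± 47.8 CPM in SAL-SAL, 147 ± 35.9 in MOR-SAL, 115 ± 49.4 in SAL-LPS and 148 ± 60.9 in MOR-LPS, and its log2 fold changes lay between -0.23 and 0.27 with standard errors of 0.18 to 0.27.

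A call in 1 region does not show that the regions differ, so the difference itself was tested over all libraries for the 2 called contrasts. For Grm7 after LPS in morphine-exposed mice, the hippocampal minus the hypothalamic log2 fold change was 0.94 ± 0.31 (edgeR adjusted p = 0.0758). The hypothalamic response differed by -0.77 ± 0.31 from that in the PFC (edgeR adjusted p = 0.188) and by -0.62 ± 0.33 from that in the striatum (edgeR adjusted p = 0.51). For Grm2 in MOR-LPS against SAL-LPS mice, the hippocampal minus the hypothalamic log2 fold change was -0.80 ± 0.76 (edgeR adjusted p = 0.863). The hypothalamic one exceeded that in the PFC by 1.76 ± 0.80 (edgeR adjusted p = 0.276) and that in the striatum by 1.42 ± 0.75 (edgeR adjusted p = 0.748). None was called. The shares of all genes called were 2.91%, 2.81% and 1.21% for the first contrast and 1.62%, 2.23% and 0.313% for the second, for hippocampus, PFC and striatum.

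Genes that work with these receptors were taken from 4 lists (48 symbols, 47 of them tested in each region). The lists were drawn up with earlier results of these data known. Of 940 tests, 18 were called, in 5 of 20 comparisons. The largest number was in the hypothalamus after LPS in morphine-exposed mice, where 9 of 47 rose and 0 fell, beside 6.27% of all genes called in either direction. Of the glutamate supply list, 4 of 8 rose: Slc17a7, a vesicular glutamate transporter, by 3.35 ± 0.76 on the log2 scale (edgeR adjusted p = 0.00569), the astrocytic glutamate transporters Slc1a2 by 1.96 ± 0.26 (edgeR adjusted p = 8.32e-06) and Slc1a3 by 2.36 ± 0.52 (edgeR adjusted p = 0.0048), and glutamine synthetase Glul by 1.82 ± 0.37 (edgeR adjusted p = 0.00222). The median of that list was 1.14 against 0.00 over all genes tested. Slc1a3 is itself among the astrocyte markers, whose summed level had a median of 23.6 CPM in MOR-SAL and 149 CPM in MOR-LPS, and Slc17a7 is among the cortical ones; the part of these cells in the result was not tested.

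On the postsynaptic side of Grm5, 2 of 14 genes of the group I list rose in that comparison, the scaffold genes Homer3 (2.76 ± 0.74, edgeR adjusted p = 0.0175) and Dlgap1 (0.83 ± 0.22, edgeR adjusted p = 0.018). Of 17 genes of the group II and III list, the adenylyl cyclases Adcy1 (1.41 ± 0.32, edgeR adjusted p = 0.00656) and Adcy9 (0.72 ± 0.20, edgeR adjusted p = 0.0226) rose. Of 8 tested receptor partners, the scaffold gene Grasp did (1.98 ± 0.53, edgeR adjusted p = 0.0181). The medians of these 3 lists were 0.17, 0.06 and -0.05. From MOR-SAL to MOR-LPS hypothalamus, the median sum of the PFC markers went from 62.3 to 102 CPM and that of the hippocampal markers from 345 to 449. The median sum of the striatal markers went from 213 to 141 CPM. The part of these tissues in the result was not tested.

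At baseline, Homer2 (-1.61 ± 0.32, edgeR adjusted p = 0.0039) and Slc1a2 (-1.23 ± 0.27, edgeR adjusted p = 0.0105) fell in MOR-SAL hypothalamus, 2 of 47 beside 1.44% of all genes. After LPS, Slc1a2 was higher in MOR-LPS than SAL-LPS mice (1.27 ± 0.28, edgeR adjusted p = 0.0346), 1 of 47 beside 1.03% of all genes. The interaction was called for 5 of 47, beside 3.8% of all genes: Homer2 (1.88), Adcy1 (2.21), the potassium channel gene Kcnj3 (1.12), Slc1a2 (2.49) and Glul (2.05), each with a larger log2 response in morphine-exposed mice. The summed astrocyte markers of the hypothalamus had medians of 17.2 CPM in SAL-SAL, 23.6 in MOR-SAL, 31.8 in SAL-LPS and 149 in MOR-LPS, and their part in the values of Slc1a2 and Glul was not tested. In the striatum only Slc1a3 rose after LPS in morphine-exposed mice (1.58 ± 0.42, edgeR adjusted p = 0.0433), 1 of 47 beside 1.39% of all genes. Without the libraries high in oligodendrocyte markers 16 of 18 calls held, and the interaction of Glul (adjusted p = 0.477) and striatal Slc1a3 (0.281) were lost.

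The members also differed in the genes whose levels ran with theirs. Over 200 libraries and 9826 genes, after each region's mean was taken away, the genes nearest to Grm5 were Nlgn1 (r = 0.87), Dlg2 and Celf2, and those nearest to Grm7 were Mdga2 (r = 0.87), Grik2 and Csmd3. Grm2 ran with Bdnf (r = 0.70), Syt17 and Nrn1, and Grm3 with Pde4b (r = 0.72), Sgk1 and Bcl2. Grm4 ran with Gtf2ird1 (r = 0.72), Tln2 and Rora, and Grm8 with Cdh18 (r = 0.74), Ptprt and Pcdh7. Among the members themselves, Grm5 and Grm7 had the highest r, 0.79, and Grm2 and Grm3 the lowest, -0.35. These values describe libraries that share region, depth and the composition of the sorted nuclei.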

How the data were processed

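The authors trimmed reads with Trim Galore 0.6.7, aligned them to mm10 with STAR 2.7.10a and took gene counts from STAR's gene-count mode, which counts reads over annotated exons, with HTSeq 0.12.4 as a check; versions are from the submitters' processing notes, which also name DESeq2 1.40.2. The deposited raw counts are whole numbers of reads per gene and library. The deposited CPM divide each count by its library's total, mitochondrial genes left out of that total (checked on the files), and were not used in tests. Which of its strand settings was used is not given in the sources used here.

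Groups, sex and animal came from the labels, and the litter from the first part of the replicate number, as the study's supplement gives it. Raw counts were fitted in R 4.3.3 with edgeR 4.0.16 (TMM, estimateDisp, glmQLFit, glmQLFTest, 4 conditions and sex, each region alone), over genes with a total count above 10, with Benjamini-Hochberg adjustment over all genes tested. Levels are TMM-normalized CPM. A library from 1 animal is the unit. Correlations used log2(CPM + 1). The fits were tested on simulated data. Alternatives used DESeq2 1.42.0, limma 3.58.1, other filters and scalings, each sex alone, subsets of libraries, and litter or animal as a block; removal of libraries high in oligodendrocyte markers, removal of PFC library 5-1, the thalamic term, the groups by span and the sex differences were added after the data were seen. Libraries of different regions with the same replicate number were taken as 1 animal from the labels and the study's sample numbering. The values alone do not show this pairing: in SAL-SAL libraries, deviations from region means had a median r of 0.028 over 53 such pairs (34.0% of them over 0.1), against -0.013 over 772 other pairs (21.1%).

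A fold change was printed for every member that was called or had an unadjusted p under 0.05, and other members are given by ranges or levels, with some uncalled values beside the called ones. The 3 genes of highest Pearson r were named for each member among genes with a mean of at least 5 CPM in every region, and list genes were named where called. Members and lists were chosen with earlier results of these data known. Total counts limit the precision, and intervals for a count of 0 cover counting error only.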

Additional observations from a re-analysis of the deposited data

Results flagged for a closer look

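Among the 18 groups of 4 to 10 libraries in which single libraries were checked against the others, 3 values stood far from the rest of their group, and chance alone sets apart about 1 in 20 groups. Grm4 reached 1036 CPM in PFC SAL-SAL library 5-1, where the next highest was 402. Grm4 reached 471 CPM in PFC SAL-LPS library 3-3, where the next highest was 244. Grm7 was 989 CPM in striatal MOR-SAL library 17-2, where the next lowest was 2104. The LPS response of Grm2 in the hypothalamus of morphine-exposed mice differed between the sexes, with a male minus female log2 difference of 2.75 (edgeR adjusted p = 0.0197). That test was chosen after the values had been seen, and its call was lost without the libraries high in oligodendrocyte markers. Male and female litters were separate there.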

How the results depend on the processing

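Of 278 values of members compared between conditions under alternatives, 262 kept direction and side of the threshold, as did 213 of 231 between regions. The single hypothalamic call for morphine after LPS (Grm2) became 0 under DESeq2, under filterByExpr, without low-depth libraries, without libraries whose Y-linked genes went against the label, in females alone, in males alone, without litter 10 and under limma-voom with correlation within litters, where the tool changed too. The single call for LPS in morphine-exposed mice (Grm7) became 0 in females alone; in males alone the 1 call was Grm2 (2.19, adjusted p = 0.0011) in place of Grm7, and the thalamic term gave 2 calls, with striatal Grm4 added. The 0 calls of the interaction became 1 without libraries high in oligodendrocyte markers (Grm8, -1.45). The 20 calls between regions became 19 without PFC library 5-1 and 13 in males alone, where fewer libraries were tested. Direction reversed for hypothalamic Grm4 at baseline with the thalamic term (0.18), for hypothalamic Grm8 after LPS, morphine-exposed against saline-reared, in females alone (0.024) and for hypothalamic Grm2 after LPS in morphine-exposed mice in females alone (-0.57); the cause was not tested. With the litter as a block the LPS comparisons gave 0 calls in saline-reared mice, 1 in morphine-exposed mice (Grm7, adjusted p = 0.00872) and 0 for the interaction, and the animal as a block gave 20 calls between regions, with hippocampus against PFC Grm2 lost (adjusted p = 0.101) and hypothalamus against striatum Grm4 gained (-1.16, adjusted p = 0.0434). Exposure could not be fitted with the litter as a block, since each litter had 1 exposure. Of 18 nearest genes, 17 were the same with a pseudocount of 0.1 and 14 without TMM. Grm2 had no read in 7 PFC libraries and 1 striatal library, 1 of them of low depth, and the 3 low-depth hypothalamic libraries say little about any member.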
